A study of Mus musculus with 6 samples.

Results

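Collagen genes encode the chains of the triple-helical proteins that hold bone, skin, cartilage and vessel walls together. They were taken here as every gene of the count table whose symbol has the form Col, a number, a and a number, which gave 44 of 57010 genes. RNA had been sequenced from monocytes of C57BL/6 mice (C57BL/6J in the study's methods), 1 year old, in 3 libraries from the mandible, named S16, S19 and S23, and 3 from the femur, named S13, S15 and S18. For both groups no treatment is named. The cells came from flushed bone marrow, from which other cells had been depleted with an antibody kit, so the monocytes were not picked by a marker of their own. Male and female mice were used, but the sex, the animal and the batch of a library are not given in the sources used here, and neither is whether libraries of a group came from separate mice, so that p-values measure only the spread between these libraries, which may be technical.

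The libraries held 15718782 to 25371474 counts on genes. Expression is given as counts per 1000000 after TMM scaling (CPM), as the mean ± SD of 3 libraries, and log2 fold changes are mandible over femur with their standard error (SE). A gene was called where edgeR's quasi-likelihood test gave a Benjamini-Hochberg adjusted p under 0.05 over 18114 genes and the fold change was at least 2. A count of 0 allows up to 3 counts, 0.133 to 0.172 CPM on this scale, for counting error only. Xist, an RNA that female cells make from their silenced X chromosome, had 25189 counts in mandible library S23 and at most 12 in each of the other 5. Within the mandible the sex and the library therefore cannot be told apart. All 3 femur libraries were low in Xist, so the sites were not balanced in it either.

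Femur library S15 stood apart. It had a count for 40494 genes, against 17481 to 23513 in the other 5 libraries, and 13454 genes had counts in S15 alone. Those genes took 0.465% of its counts, at a median of 4.45 counts per kilobase of exon and 32.9 at the 95th percentile. All 44 collagen genes had a count in S15, but only 30 had one in S13 and 30 in S18, and 34 of the 44 were at or under 32.9 counts per kilobase in S15. In 12 of the 44 neither S13 nor S18 had more than 3 counts, so that the femur level of these genes rests on S15. Calls and directions that change without S15 are given both ways, as are the fold changes it moves most. Where a gene had at most 5 counts in each of S13 and S18, at most the call or a lower bound is given.

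A collagen molecule is built of 3 chains, which may be products of 1, 2 or 3 genes. Fibrillar collagens pack into the banded fibrils that carry load in bone and tendon, basement membrane collagens form sheets under epithelia and around vessels, and fibril-associated collagens with interrupted triple helices (FACIT) sit on the surface of fibrils. In bone and teeth the matrix that is mineralized is made mainly of type I collagen, laid down by osteoblasts and odontoblasts. Monocytes are blood cells that are known for resorbing or clearing matrix once they mature.

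The upstream sequences of Col3a1, Col5a1 and Col6a2 are shown because these 3 genes had the highest mandible CPM among the called collagen genes for which the RefSeq start equals the GENCODE M21 gene start and no annotated exon lies in the window. Each is the 250 bases before the start, on the gene's strand, from RefSeq on build GRCm38.p6. The windows were searched on both strands for 3 runs of letters, and capitals mark each match. The first was TATAAA, the core of a TATA box, which is bound by the general transcription machinery. The second was CCAAT, bound by the factor NF-Y, of which the printed windows hold no match. The third was GGGCGG, a GC box of the kind bound by Sp1-family factors. No printed match overlaps another. A match is a run of letters only, and whether any of them is bound or used was not tested. A match of GGGCGG on the other strand is read here as its reverse complement.
Col3a1 (chr1:45311288-45311537, plus strand): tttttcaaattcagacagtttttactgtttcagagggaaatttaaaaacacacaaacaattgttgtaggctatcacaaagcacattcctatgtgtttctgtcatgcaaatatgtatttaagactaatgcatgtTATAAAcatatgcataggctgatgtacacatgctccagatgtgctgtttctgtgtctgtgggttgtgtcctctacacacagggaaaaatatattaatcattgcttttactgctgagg
Col5a1 (chr2:27886175-27886424, plus strand): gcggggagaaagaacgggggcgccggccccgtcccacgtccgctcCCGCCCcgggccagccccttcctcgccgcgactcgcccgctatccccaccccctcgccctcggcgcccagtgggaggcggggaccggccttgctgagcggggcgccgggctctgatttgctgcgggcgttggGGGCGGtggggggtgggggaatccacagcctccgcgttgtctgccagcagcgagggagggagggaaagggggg
Col6a2 (chr10:76623631-76623880, minus strand): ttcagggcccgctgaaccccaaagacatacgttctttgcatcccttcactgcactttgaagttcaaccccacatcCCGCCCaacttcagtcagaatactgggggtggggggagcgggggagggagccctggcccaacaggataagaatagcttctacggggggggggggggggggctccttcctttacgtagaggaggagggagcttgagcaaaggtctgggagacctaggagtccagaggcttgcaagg
TATAAA began 117 bases before the start of Col3a1, which encodes the single chain of type III collagen. GGGCGG began 205 and 73 bases before the start of Col5a1 and 175 bases before that of Col6a2. The window of Col6a3, the next gene by the same rule, held no match and is not printed. Of the 44 collagen genes 35 had a promoter in the RefSeq table, and 21 of these (60.0%) held GGGCGG in this window, as did 11 of the 17 called ones (64.7%) and 35.4% of all 27025 genes of the table. TATAAA was in 5 of the 35 (14.3%, against 14.3% of all genes) and CCAAT in 13 (37.1%, against 37.5%). Col12a1, Col14a1, Col9a3, Col26a1, Col5a2, Col4a3, Col22a1, Col2a1 and Col1a1 had no entry.

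Every collagen gene that was called was higher in mandibular-derived than in femur-derived monocytes. Of the 44, 39 passed the filter on low counts, 21 of the 39 were called higher in the mandible and none was called lower. That is 53.8% of those tested, against 3.88% of all 18114 tested genes called higher and 1.3% called lower. The remaining 18 tested genes were not called, and Col4a3, Col4a6, Col9a1, Col10a1 and Col28a1 were not tested. At an unadjusted p under 0.05, 31 of the 39 were higher and none lower, against 1662 of all 18114 tested genes higher. In 32 of the 39 (82.1%) every mandible library lay above every femur library, against 12.7% of all tested genes. The median log2 fold change of the tested collagen genes was 3.87, and that of all tested genes was -0.04.

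By class, 10 of 11 tested fibrillar genes were called, 2 of 4 basement membrane genes, 3 of 8 FACIT genes, 3 of 6 beaded filament genes, both tested hexagonal network genes, 1 of 4 transmembrane genes and none of the anchoring fibril, multiplexin and other genes (1, 2 and 1 tested). The median log2 fold change was 5.91 in the fibrillar class, 3.83 in the basement membrane class, 3.55 in the beaded filament class and 2.91 in the FACIT class. Without S15, 29 of 39 tested collagen genes were called higher, against 5.11% of all genes tested there. Of these 29, 20 were also called with S15. Col5a3, Col22a1, Col6a4, Col6a5, Col6a6, Col13a1, Col23a1, Col25a1 and Col15a1 were gained, and Col8a1 was lost (adjusted p = 0.055). All 11 fibrillar, all 6 beaded filament and all 4 transmembrane genes were then called, but only 2 of 4 basement membrane and 4 of 8 FACIT genes.

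**Figure D1:**
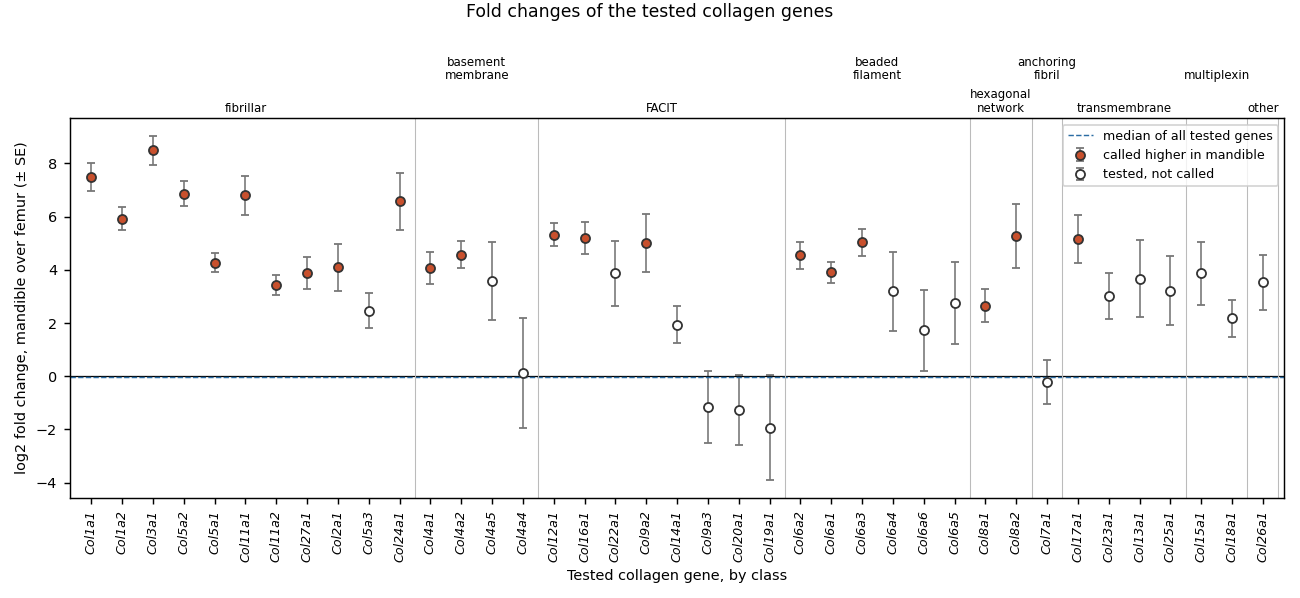
Log2 fold change of each tested collagen gene, mandible over femur, with its standard error, grouped by class, where filled points are called genes. The fibrillar genes reach from 2.46 to 8.49, and the few points below 0 (Col7a1, Col9a3, Col19a1 and Col20a1) are not called.

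Collagen transcripts are long, and the tested collagen genes had a median exon length of 7621 bases against 3671 over all tested genes. Among the longest 10% of tested genes 8.77% were called higher. Of the 14 collagen genes that long 8 were called, and of the 25 shorter ones 13 were called. With each library corrected for a trend with gene length, 20 collagen genes were called, against 3.59% of all tested genes, and their median was 3.61 where that of all tested genes was -0.18.

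Type I collagen, the main protein of bone matrix, gave the highest levels. Col1a1 (chr11:94936224-94953042), the gene of its alpha 1 chain, stood at 26.9, 45.3 and 24.3 CPM in femur libraries S13, S15 and S18 and at 4738, 5629 and 7038 CPM in mandible libraries S16, S19 and S23, the order kept below. The means were 32.2 ± 11.5 and 5801 ± 1159.8 CPM, a log2 fold change of 7.49 (SE 0.52, adjusted p = 1.6e-05). The mandible libraries lay more than 100-fold above every femur library, and none of the femur libraries was at 0. Col1a2 (chr6:4504814-4541544), which encodes the alpha 2 chain, had 59.4, 56.7 and 41.0 CPM in the femur against 2410, 3029 and 4025 CPM in the mandible, with a log2 fold change of 5.91 (SE 0.43, adjusted p = 2.4e-05). Both genes rose in every mandible library, with S16 lowest and S23 highest.

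Col3a1 (chr1:45311538-45349706), whose type III collagen is typical of soft and vascular tissue, had the largest log2 fold change of the 39 tested genes when all libraries were used. It had 6.57, 7.56 and 5.08 CPM in the femur against 1173, 2422 and 3301 CPM in the mandible, a log2 fold change of 8.49 (SE 0.56, adjusted p = 1.3e-05). Its neighbour Col5a2 (chr1:45374321-45503282) lies 24614 bases away on the opposite strand, tail to tail, and encodes the alpha 2 chain of type V collagen, which nucleates fibrils of types I and III. Col5a2 had 7.62, 4.84 and 3.67 CPM in the femur against 432, 565 and 877 CPM in the mandible (log2 fold change 6.86, SE 0.46, adjusted p = 1.3e-05). Col5a1 (chr2:27886425-28039514), the gene of the alpha 1 chain of type V, had 21.7, 14.97 and 12.5 CPM against 233, 276 and 436 CPM (4.26, SE 0.36, adjusted p = 7.3e-05). Per kilobase of exon too, Col5a1 was the higher of the pair in each femur library, and Col5a2 in each mandible library. Col5a3, the third chain gene of type V, had 3.76, 7.05 and 1.28 CPM against 10.4, 17.5 and 38.8 CPM and was not called (2.46, SE 0.66, adjusted p = 0.058). It was called without S15 (3.10, adjusted p = 0.020) and without S16 (2.81, adjusted p = 0.045).

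**Figure D2:**
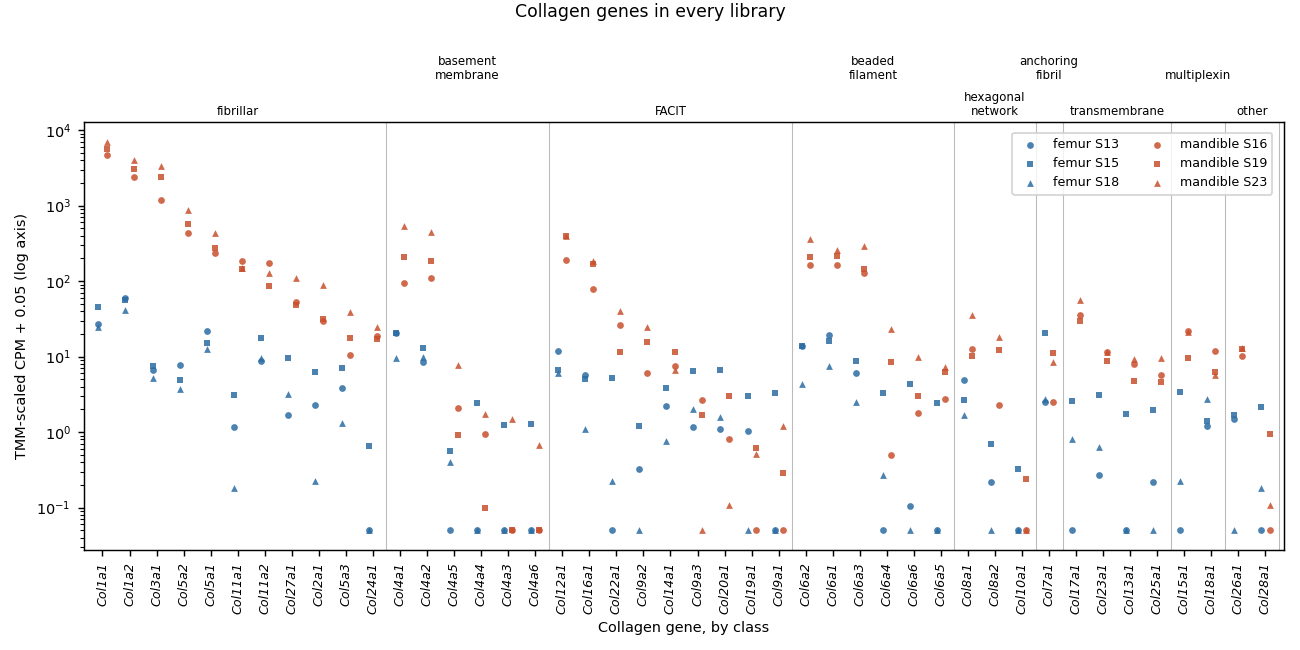
CPM of each collagen gene in each of the 6 libraries, plotted as CPM + 0.05 on a log axis and grouped by class, with femur and mandible libraries in different colours. For Col1a1, Col1a2 and Col3a1 the mandible points lie between 1173 and 7038 CPM and the femur points between 5.08 and 59.4 CPM.

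The remaining fibrillar genes were those of types II, XI, XXIV and XXVII. Col2a1, which encodes the main collagen of cartilage, had 2.26, 6.17 and 0.177 CPM in the femur against 29.5, 31.6 and 87.4 CPM in the mandible (4.10, SE 0.88, adjusted p = 0.020). Its log2 fold change was 5.34 without S15 and 3.35 without S23, and the call was lost without S13 (adjusted p = 0.088), S19 (0.067) or S23 (0.0996). Col11a1 and Col11a2 encode chains of type XI collagen, which is best known from the core of cartilage fibrils. Col11a1 had 1.10, 3.04 and 0.133 CPM against 187, 144 and 147 CPM (6.80, SE 0.74, adjusted p = 0.00036; 8.02 without S15). Col11a2 had 8.73, 17.4 and 9.63 CPM against 172, 87.0 and 128 CPM (3.44, SE 0.37, adjusted p = 0.00036). S15 was the highest femur library for each of these 3 genes, and no femur library overlapped with the mandible.

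Markers of chondrocytes, the cells of cartilage, were set beside these genes. The summed CPM of 7 such markers was 0.552 to 6.59 in the femur against 23.3 to 35.9 in the mandible, 1 of the 4 tested (Comp, a cartilage matrix protein, 1.62 ± 1.17 against 21.8 ± 5.35 CPM) was called higher, and Matn1 and Matn3 were at 0 in all mandible libraries. Acan, the main cartilage proteoglycan, had 2.35, 2.52 and 3.72 CPM and Sox9, the master regulator of chondrocytes, 3.85, 2.37 and 4.69 CPM in the mandible, and neither was called (adjusted p = 0.69 and 0.41). Their part in the result for Col2a1 and the type XI genes was not tested. Per kilobase of exon, the level of Col11a1 was 0.354, 0.357 and 0.544 of that of Col2a1 in the femur libraries and 4.59, 3.31 and 1.22 in the mandible libraries.

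Col24a1 had 0, 13 and 0 counts in the femur against 373, 361 and 433 counts in the mandible, which is 20.2 ± 4.04 CPM (6.58, SE 1.07, adjusted p = 0.0043). Its femur counts all came from S15, and against 3 counts in each of S13 and S18 it was at least 135-fold higher in the mandible. Col27a1, a fibrillar collagen of cartilage and of developing teeth, had 1.66, 9.40 and 3.18 CPM against 52.1, 48.4 and 109 CPM (3.87, SE 0.60, adjusted p = 0.0034; 4.79 without S15). Both passed the test in every alternative that was run.

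The share of the library that fell on collagen genes rose with these levels. All 44 genes took 0.0218, 0.0375 and 0.0138% of the counts in the femur (0.0244 ± 0.0120%) and 1.02, 1.44 and 2.11% in the mandible (1.52 ± 0.55%). Within the collagen counts, the fibrillar class took 57.9, 50.6 and 65.1% in the femur against 89.6, 87.8 and 85.3% in the mandible. Col1a1, Col1a2 and Col3a1 together took 38.5, 32.0 and 45.4% against 78.9, 79.3 and 75.6%. For neither share did the groups overlap. Most of that difference was in Col1a1, at 11.1, 13.3 and 15.7% against 44.9, 40.3 and 37.0%, and Col3a1, at 2.72, 2.21 and 3.28% against 11.1, 17.3 and 17.4%. Col1a2 held 24.6, 16.6 and 26.4% against 22.8, 21.7 and 21.2%, and here the groups overlapped. The basement membrane class took 11.9, 11.3 and 12.6% of collagen counts in the femur against 1.98, 2.85 and 5.22% in the mandible, although the level of its main genes was higher there. Beaded filament genes went from 16.2, 14.1 and 9.34% to 4.31, 4.22 and 5.02% and FACIT genes from 9.61, 11.9 and 7.41% to 2.94, 4.36 and 3.44%, again without overlap. With 3 libraries per site the smallest p of an exact two-sided permutation test is 0.1, and these shares add up to 100% in each library, so they are given without a test.

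**Figure D3:**
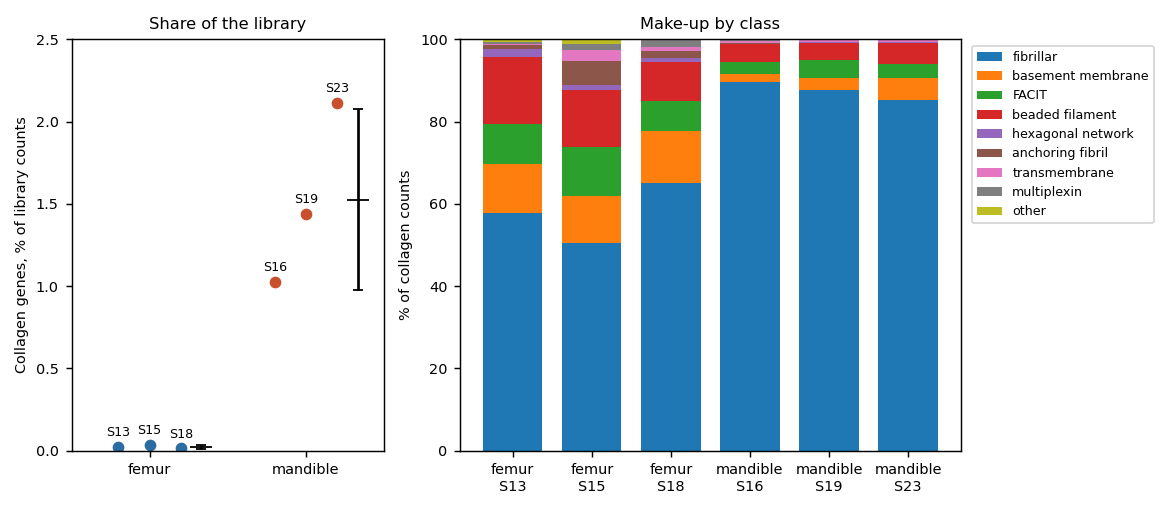
Share of the collagen counts of each library, in percent, taken by each collagen class, as stacked bars that start at 0 for the 3 femur and 3 mandible libraries. The fibrillar part is 50.6 to 65.1% in the femur against 85.3 to 89.6% in the mandible.

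Per kilobase of exon the order of the genes differed between the sites. In the mandible Col1a1 led with 884 CPM per kilobase, followed by Col1a2 (254), Col3a1 (234), Col5a2 (65.1), Col6a1 (48.6), Col4a1 (37.5), Col4a2 (37.4), Col5a1 (36.8) and Col6a2 (29.5). Of the neighbours in this order, only Col1a1 and Col1a2, and Col3a1 and Col5a2, did not overlap between the libraries. In the femur Col1a1 (4.91 CPM per kilobase) and Col1a2 (4.21) were followed by Col6a1 (3.25), Col4a1 (2.23), Col5a1 (1.92), Col11a2 (1.73) and Col4a2 (1.57). All neighbours in that order overlapped between the libraries. Col3a1 was at place 11 there (0.652) and Col5a2 at place 15 (0.560). The order depends on S15, since without it Col1a2 (4.04) came before Col1a1 (3.904), Col3a1 was at place 9 (0.594) and Col5a2 at place 11 (0.589).

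The balance between chains that share a molecule was also compared. Type I collagen usually joins a pair of alpha 1 chains with a single alpha 2 chain. The ratio of Col1a1 to Col1a2, both per kilobase, was 0.858, 1.51 and 1.13 in the femur against 3.72, 3.52 and 3.31 in the mandible, 3.10-fold higher on the mean of logs (log2 difference 1.63, 1.43 to 1.84 with any library left out). Its size within a site depends on the exon lengths of the count table, 6563 and 12426 bases, which need not be those of the transcripts. It therefore cannot be read against the make-up of the molecule. The difference between the sites does not depend on these lengths. The ratio of Col5a1 to Col5a2 was 3.19, 3.47 and 3.83 in the femur against 0.605, 0.548 and 0.557 in the mandible, 0.163 times the femur ratio (log2 difference -2.61, -2.68 to -2.55 with any library left out). Neither ratio overlapped between the sites.

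The type VI ratios had smaller log2 differences. Col6a1 to Col6a2 was 2.62, 2.25 and 3.39 in the femur against 1.91, 1.93 and 1.36 in the mandible (log2 difference -0.66), and Col6a1 to Col6a3 was 8.78, 5.06 and 8.34 against 3.48, 3.999 and 2.48 (log2 difference -1.14), both without overlap. The ratio of Col4a1 to Col4a2 was 2.11, 1.38 and 0.855 against 0.768, 0.995 and 1.06, and overlapped. The exact two-sided permutation p was 0.1, the smallest possible, for 4 of the 5 pairs (0.125 after Benjamini-Hochberg adjustment over the 5 pairs) and 0.3 for the type IV pair (adjusted p = 0.3), so no pair passed 0.05. Col11a1 to Col11a2, not tested because of the low femur counts, was 0.0683, 0.0944 and 0.00742 in the femur against 0.585, 0.893 and 0.619 in the mandible.

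**Figure D4:**
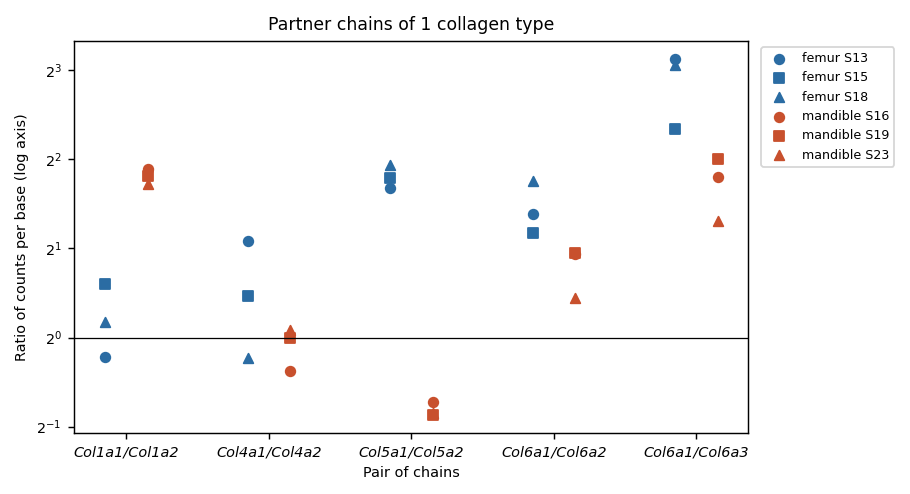
Ratio of partner chains per kilobase of exon, on a log axis, for 5 pairs of collagen genes in each of the 3 femur and 3 mandible libraries. The ratio of Col1a1 to Col1a2 lies between 0.858 and 1.51 in the femur and between 3.31 and 3.72 in the mandible, and that of Col5a1 to Col5a2 falls from above 3 to below 1.

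Of the basement membrane genes, the pair that makes the common type IV molecule rose. Col4a1 (chr8:11198423-11312826) and Col4a2 (chr8:11312805-11449287) lie head to head on opposite strands and share 22 exonic bases at their 5′ ends. Col4a1 had 20.3, 20.2 and 9.41 CPM in the femur against 95.6, 210 and 534 CPM in the mandible (4.07, SE 0.60, adjusted p = 0.0023). Col4a2 had 8.51, 12.9 and 9.76 CPM against 110, 187 and 445 CPM (4.57, SE 0.51, adjusted p = 0.00039). The mandible libraries differed 5.59-fold from lowest to highest for Col4a1 and 4.03-fold for Col4a2, with S23 highest, and without S23 the log2 fold changes were 3.15 and 3.78, both still called. Markers of endothelial cells, which line the vessels that this collagen surrounds, had a summed CPM of 45.4 to 54.6 in the femur against 36.7 to 49.6 in the mandible, and none of the 4 tested of 5 was called (Pecam1 44.3 ± 5.90 against 36.3 ± 7.16 CPM). The 4 mural cell markers are those of the muscle cells and pericytes of vessels. Their sum was 4.20 to 7.65 CPM in the femur against 41.1, 86.8 and 131 CPM in the mandible. The order of libraries was that of Col4a1, with Myh11 and Acta2 called higher. In the mandible Rgs5 (6.35, 3.51 and 0.801 CPM) and Cspg4 (14.6, 13.2 and 7.09 CPM) ran in the reverse order. Neither was called (adjusted p = 0.29 and 0.078). The part of these cells in the result was not tested.

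The other type IV genes, of the kidney, lens and epithelial molecules, were near the limit of counting. Col4a5 had 0, 11 and 8 counts in the femur against 40, 18 and 135 in the mandible and was not called (3.58, SE 1.48, adjusted p = 0.24; 4.20 without S15, adjusted p = 0.21). Col4a4 had 0, 52 and 0 against 18, 1 and 29 counts (0.12, SE 2.06, adjusted p = 0.99), and all its femur counts were in S15. Its mandible mean was 5.83-fold above 3 counts in each of S13 and S18, but S19, with 1 count, was not above that level. Without S15 the gene was not called (adjusted p = 0.26). Col4a3, which starts 71 bases from Col4a4 on the opposite strand, had 0, 26 and 0 against 0, 0 and 25 counts, and Col4a6, which starts 1308 bases from Col4a5, had 0, 27 and 0 against 0, 0 and 11 counts. Outside S15 these 4 genes had at most 8 counts in the femur.

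Type VI collagen forms beaded filaments close to the cell surface, and its 3 classical chains rose together. Col6a1 had 19.2, 16.03 and 7.55 CPM in the femur against 162, 215 and 261 CPM in the mandible (3.9, SE 0.39, adjusted p = 0.00023). Col6a2 had 13.9, 13.5 and 4.24 CPM against 161, 211 and 366 CPM (4.54, SE 0.51, adjusted p = 0.0004). Col6a3 had 5.97, 8.66 and 2.47 CPM against 127, 147 and 287 CPM (5.04, SE 0.51, adjusted p = 0.00026). The groups were well apart for all 3, and S18 was the lowest femur library each time. Col6a1 and Col6a2 lie 85161 bases apart on chromosome 10 on the same strand.

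The later chains Col6a4, Col6a5 and Col6a6, which stand side by side on chromosome 9 and can replace the alpha 3 chain, were far lower. Col6a4 had 0, 70 and 5 counts in the femur against 9, 177 and 401 in the mandible, Col6a5 had 0, 51 and 0 against 53, 132 and 126, and Col6a6 had 1, 93 and 0 against 35, 63 and 170. None was called (adjusted p = 0.31, 0.44 and 0.69), and nearly all of their femur counts were in S15. Without S15 all 3 were called (adjusted p = 0.041, 0.0072 and 0.024), and Col6a5 was then at least 36.0-fold higher against 3 counts in each of S13 and S18.

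Among the FACIT genes Col12a1 and Col16a1 had the smallest p. Col12a1, known from tendon, ligament and bone surfaces, had 11.9, 6.63 and 6.01 CPM in the femur against 189, 398 and 394 CPM in the mandible (5.32, SE 0.43, adjusted p = 5.5e-05). Col16a1 had 5.69, 4.98 and 1.06 CPM against 77.6, 168 and 186 CPM (5.21, SE 0.60, adjusted p = 0.00047). Col14a1, a relative of Col12a1, had 2.15, 3.73 and 0.707 CPM against 7.36, 11.4 and 6.58 CPM and was not called (1.94, SE 0.71, adjusted p = 0.18; 2.52 without S15, adjusted p = 0.084), although its mandible libraries all lay above the femur. Col22a1, a collagen of tissue junctions such as that of muscle and tendon, had 0, 111 and 4 counts against 524, 243 and 708 (3.87, SE 1.22, adjusted p = 0.11), and was called without S15 (adjusted p = 0.00057).

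Type IX collagen coats cartilage fibrils and has 3 chain genes, of which 1 was called. Col9a2 had 5, 25 and 0 counts in the femur against 120, 328 and 434 in the mandible (5.0, SE 1.08, adjusted p = 0.020). It was also called without S15 (adjusted p = 0.0044), and its call was lost without S13 (adjusted p = 0.088), S19 (0.10) or S23 (0.10). Col9a1, not tested, had 0, 70 and 0 counts against 0, 5 and 20. Col9a3 had 1.10, 6.36 and 1.99 CPM against 2.60, 1.61 and 0 CPM (-1.16, SE 1.37, adjusted p = 0.78; -0.19 without S15), and it shares 234 exonic bases with Tcfl5 on the other strand, which had at most 25 counts. The difference between these genes was not itself tested.

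Col19a1 and Col20a1 were the other FACIT genes with a log2 fold change below 0. Col19a1 had 0.994, 2.99 and 0 CPM in the femur against 0, 0.570 and 0.458 CPM in the mandible (-1.94, SE 1.98, adjusted p = 0.74). Col20a1 had 1.05, 6.54 and 1.55 CPM against 0.751, 2.94 and 0.0572 CPM (-1.28, SE 1.31, adjusted p = 0.74). Without S15 the log2 fold changes were -0.56 (Col19a1) and -0.10 (Col20a1), with adjusted p = 0.95 and 0.99. The groups overlapped for both, S15 was highest in both, and 79 exonic bases of Col20a1 belong also to BX649560.1 on the same strand. Whether the strand of the reads or reads with several positions were used in counting is not given in the sources used here, so values of overlapping genes are uncertain.

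The network-forming collagens of type VIII, which are typical of vessel walls and of the sheet under the corneal endothelium, were called at low levels. Col8a1 had 4.92, 2.63 and 1.63 CPM in the femur against 12.6, 9.97 and 35.2 CPM in the mandible (2.65, SE 0.62, adjusted p = 0.030). Its log2 fold change was 1.83 without S23, and the call was lost without S15 (adjusted p = 0.055), S18 (0.12), S19 (0.058) or S23 (0.20). Col8a2 had 3, 14 and 0 counts against 45, 253 and 317 (5.28, SE 1.20, adjusted p = 0.027), with a log2 fold change of 4.63 without S23. It was also called without S15 (adjusted p = 0.0098), and its call was lost without S13 (adjusted p = 0.11), S18 (0.054), S19 (0.12) or S23 (0.13). Col10a1, the collagen of hypertrophic cartilage, had 0, 6 and 0 counts in the femur against 0, 4 and 0 in the mandible and was not tested.

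Col7a1 forms the anchoring fibrils that tie epithelium to connective tissue. It had 2.49, 20.5 and 2.65 CPM in the femur against 2.45, 11.2 and 8.35 CPM in the mandible (-0.22, SE 0.84, adjusted p = 0.95), and its direction turned without S15 (1.47, adjusted p = 0.35) and without S16 (0.21, adjusted p = 0.96). Col17a1, a transmembrane collagen of the attachment plaques of epithelial cells, had 0, 55 and 17 counts in the femur against 702, 621 and 966 counts in the mandible, or 1.10 ± 1.30 against 40.0 ± 13.5 CPM (5.16, SE 0.91, adjusted p = 0.0068; 6.58 without S15). Markers of ameloblasts and dental epithelium were set beside it. Their summed CPM was 8.52 to 12.02 in the femur against 5765, 7315 and 11285 in the mandible, and 5 of the 7 were called higher, among them Amelx, Ambn and Enam, which encode proteins of the enamel matrix (4386 ± 1830.1, 2612 ± 861 and 1028 ± 249 CPM in the mandible, each under 0.3 CPM on average in the femur). Cdh1 (7.44 ± 2.68 against 11.7 ± 2.39 CPM) and Epcam (1.94 ± 1.38 against 1.39 ± 0.82 CPM) overlapped between the sites and were not called. Within the mandible Col17a1 was lowest in S19, while the summed markers were lowest in S16. The part of these markers in the level of Col17a1 was not tested.

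The remaining transmembrane and multiplexin genes lay higher in all mandible libraries than in any femur library, but none was called. Col23a1 had 0.221, 3.09 and 0.574 CPM against 11.5, 8.74 and 11.4 CPM (3.01, SE 0.87, adjusted p = 0.080). Col13a1 had 0, 37 and 0 counts against 157, 100 and 163 (3.66, SE 1.44, adjusted p = 0.22), and Col25a1 had 3, 42 and 0 against 113, 95 and 167 (3.21, SE 1.29, adjusted p = 0.23). Without S15 these 3 genes were called (adjusted p = 0.0046, 0.0026 and 0.016), Col23a1 with a log2 fold change of 4.64, and Col13a1 was then at least 49.0-fold higher against 3 counts in each of S13 and S18.

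Col15a1 and Col18a1 encode collagens of the basement membrane zone whose ends can be released as fragments that act on vessels. Col15a1 had 0, 73 and 4 counts in the femur against 440, 200 and 365 in the mandible (3.87, SE 1.18, adjusted p = 0.097), and was called without S15 (adjusted p = 0.00092). Col18a1 had 1.16, 1.34 and 2.69 CPM against 11.7, 6.27 and 5.61 CPM (2.18, SE 0.69, adjusted p = 0.11). Col26a1 had 1.44, 1.61 and 0 CPM against 10.01, 12.6 and 12.8 CPM (3.54, SE 1.03, adjusted p = 0.082; 0.042 without S18). Col28a1, not tested, had 0, 45 and 3 counts in the femur against 0, 19 and 1 in the mandible.

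Across the mandible libraries the collagen genes were not even. S23 was the highest of the 3 for 28 of the 39 tested collagen genes (71.8%) and for 18 of the 21 called, against 38.4% of all tested genes, and S16 was the lowest for 15 of the 21 (71.4%, against 42.0% of all tested genes). The spread differed between genes, with a highest-to-lowest ratio of 1.30 for Col11a1, 1.49 for Col1a1, 2.81 for Col3a1 and 5.59 for Col4a1. In the same libraries S23 also had the highest sums of osteoblast, dental epithelium, fibroblast and mural markers and the lowest sum of monocyte markers (1053 CPM, against 1952 in S16 and 1919 in S19). Between the sites the 7 monocyte markers did not separate, at a summed 1158 to 1878 CPM in the femur against 1053 to 1952 CPM in the mandible, with none called (Ccr2 660 ± 217 against 668 ± 261 CPM, Csf1r 245 ± 78.1 against 385 ± 96.2, Ly6c2 348 ± 112 against 223 ± 39.6).

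Among markers of matrix-making cells, the sum of the osteoblast lineage did separate, while that of fibroblasts and stroma did not. The summed CPM of 9 osteoblast lineage markers was 69.6 to 83.0 in the femur against 276 to 528 in the mandible, with 7 of the 8 tested called higher, and the 3 highest were Ibsp (32.2 ± 7.78 against 155 ± 66.9 CPM), Runx2 (36.1 ± 6.01 against 87.4 ± 19.5) and Alpl (2.88 ± 0.79 against 73.7 ± 49.8). The 7 fibroblast and stroma markers summed to 207 to 321 and 280 to 576 CPM, which overlap, with 4 called higher. Of these 4, Pdgfra rose from 7.29 ± 1.20 to 96.4 ± 34.7 CPM. The others were Dcn (log2 fold change 4.82, adjusted p = 1.3e-05), Lum (4.66, adjusted p = 0.00013) and Pdgfrb (1.83, adjusted p = 0.0058). None of the 4 overlapped between the sites. Cxcl12, the most abundant in the femur, was lower in the mandible, at 190 ± 48.3 against 71.1 ± 44.7 CPM. It was not called (adjusted p = 0.084). Genes of this list thus moved in opposite directions, which its sum does not show. Schwann cell markers summed to 3.36 to 6.24 and 1.47 to 2.80 CPM, with none of the 2 tested called. In bulk RNA, fewer cells of a type and less RNA per cell cannot be told apart, and the part of these cell types in the collagen levels was not tested.

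The enzymes and helpers that modify, fold, export, trim and crosslink collagen were followed as a list of 36 genes. Of the 34 tested, 14 were called higher in the mandible (41.2%, against the 3.88% of all genes) and none lower, with a median log2 fold change of 2.77. At an unadjusted p under 0.05, 22 of the 34 were higher, against 1662 of all 18114 tested genes. Called genes were 3 of 4 chaperones, 3 of 5 crosslinking enzymes and 3 of 7 propeptide processing genes. Of 4 prolyl 4-hydroxylase, 3 lysyl hydroxylase and 4 export genes 1 each was called. Of 6 genes grouped with the prolyl 3-hydroxylases 2 were called, P3h3 and P3h4. The others of that group, P3h1, P3h2, Crtap and Ppib, were not (adjusted p = 0.14, 0.70, 0.22 and 0.49). The 1 tested galactosyltransferase gene was not called. Colgalt2 and Tll2 were not tested.

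Sparc, a collagen-binding matrix protein abundant in bone, had 21.2, 18.6 and 12.1 CPM in the femur against 614, 625 and 770 CPM in the mandible (5.27, SE 0.35, adjusted p = 1.3e-05). Serpinh1, the chaperone that binds only to collagen in the endoplasmic reticulum, had 8.89, 10.6 and 9.37 CPM against 127, 205 and 248 CPM (4.33, SE 0.33, adjusted p = 3.4e-05). Plod2, which hydroxylates the lysines from which bone-type crosslinks form, had 2.04, 2.40 and 0.839 CPM against 47.2, 59.9 and 137 CPM (5.53, SE 0.54, adjusted p = 0.00021). Loxl2, a crosslinking oxidase, rose from 1.44 ± 0.78 to 31.7 ± 13.4 CPM (4.45, SE 0.53, adjusted p = 0.00062) and P3h4, part of a lysyl hydroxylation complex, from 0.508 ± 0.488 to 10.8 ± 5.18 CPM (4.40, SE 0.85, adjusted p = 0.012). For each of these genes the sites did not overlap.

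P4hb and Ppib, which serve the folding of other secreted proteins too, were not called. P4hb, a protein disulfide isomerase that is also a subunit of prolyl 4-hydroxylase, had 767, 344 and 913 CPM in the femur against 739, 728 and 397 CPM in the mandible (-0.12, SE 0.40, adjusted p = 0.94). Ppib, a proline isomerase of the endoplasmic reticulum, had 359, 173 and 349 CPM against 198, 225 and 189 CPM (-0.52, SE 0.32, adjusted p = 0.49). With Sparc, they had the highest mean CPM over both sites pooled, although Mia2 and Mia3 were above Sparc in the femur and above Ppib in the mandible. Both overlapped between the sites.

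**Figure D5:**
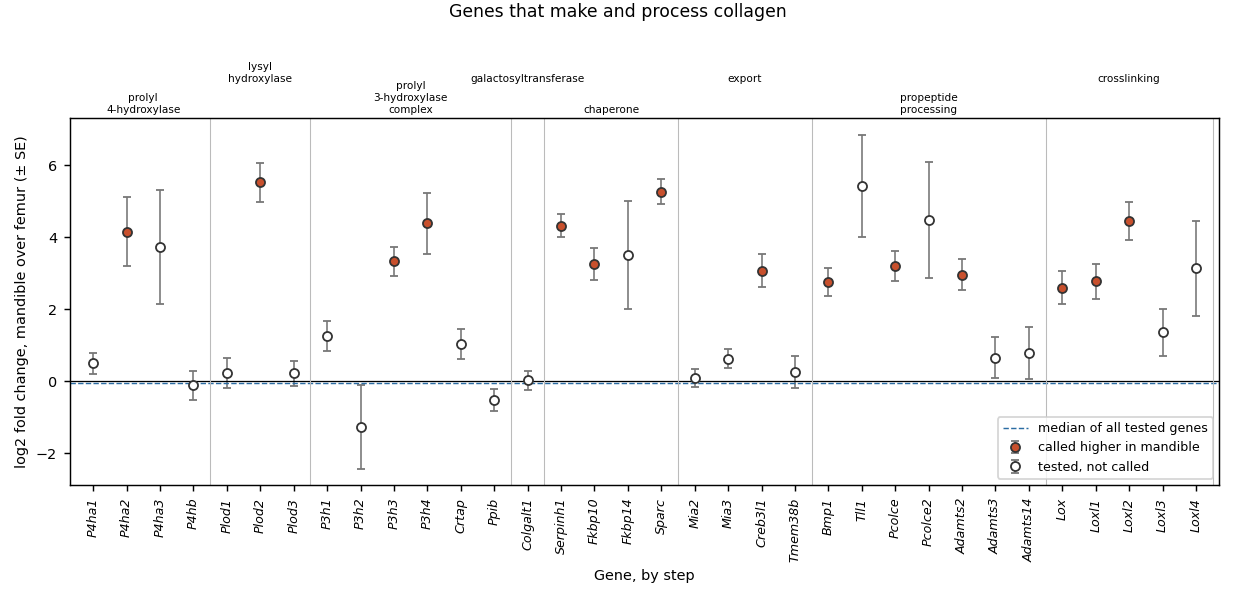
Log2 fold change of each tested collagen biosynthesis and processing gene, mandible over femur, with its standard error, grouped by step, where filled points are called genes. Plod2 (5.53), Sparc (5.27) and Serpinh1 (4.33) lie far above 0, while P4hb (-0.12) and Ppib (-0.52) lie near 0.

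Collagen receptors were mixed. Of 11 genes 10 were tested, 4 were called higher (against 3.88% of all tested genes), 1 was called lower (against 1.3%), and Oscar was not tested. Their median log2 fold change was 0.44. Itga11, the integrin chain of fibroblasts that binds fibrillar collagen, had 1.44, 2.44 and 1.06 CPM in the femur against 23.2, 61.4 and 98.8 CPM in the mandible (5.21, SE 0.58, adjusted p = 0.00039). Mrc2, which takes up collagen for breakdown, had 3.04, 3.69 and 1.502 CPM against 52.8, 81.0 and 116 CPM (4.92, SE 0.44, adjusted p = 0.00011). The collagen-binding kinases rose as well, Ddr2 from 4.38 ± 1.83 to 41.4 ± 16.3 CPM (3.24, SE 0.44, adjusted p = 0.0014) and Ddr1 from 2.46 ± 0.89 to 13.5 ± 4.22 CPM (2.46, SE 0.53, adjusted p = 0.020).

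Gp6, the collagen receptor of platelets, went the other way, at 21.8, 24.6 and 29.2 CPM in the femur against 2.102, 2.75 and 0.458 CPM in the mandible (-3.82, SE 0.59, adjusted p = 0.0034). Markers of megakaryocytes and platelets moved with Gp6, at a summed 291 to 538 CPM in the femur against 44.4 to 64.8 CPM in the mandible, with 2 of the 3 tested of 4 called lower (Pf4 and Itga2b) and Gp1bb at 0, 0 and 8 counts in the femur and at 0 in all mandible libraries. Their part in the level of Gp6 was not tested. Itgb1, the beta chain shared by the collagen-binding integrins, had 204 ± 65.1 CPM in the femur against 285 ± 43.2 CPM in the mandible (0.48, SE 0.30, adjusted p = 0.51). Itga1, a partner of Itgb1, had 80.1 ± 25.6 against 105 ± 12.8 CPM (0.39, SE 0.29, adjusted p = 0.60). These 2 and Mrc2 had the highest mean CPM over both sites pooled, although Lair1 and Gp6 were above Mrc2 in the femur.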

How the data were processed

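Reads were counted on genes in 6 libraries of monocytes, 3 per site. The authors trimmed paired-end reads, mapped them with HISAT2 2.1.0 to GRCm38 and counted them with featureCounts (version not given in the sources used here), and deposited raw counts without normalization. The table's intervals lay inside the GENCODE M21 (GRCm38) gene for only 9 of the 44 collagen genes, so M21 gave the positions, matched on Ensembl identifiers, and the table the exon lengths.

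Counts were filtered with filterByExpr (minimum count 10, minimum total 15), scaled by TMM and fitted over all genes with edgeR 4.0.16 (R 4.3.3), quasi-likelihood test, prior count 0.125, no covariates, Benjamini-Hochberg adjustment. Genes were called at an adjusted p under 0.05 and at least 2-fold. Ratios were compared by exact permutation (SciPy 1.17.1). Tests were tried on simulated data. Alternatives used limma-voom (limma 3.58.1), DESeq2 1.42.0 and the exact test of edgeR, RLE size factors, library totals only, other filters and thresholds, a prior count of 2, a length correction by loess (span 0.4), each library left out, and, chosen after the data were seen, the removal of the 18S ribosomal RNA row (4.81 to 12.2% of counts).

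The collagen genes, their classes and the lists of biosynthesis, receptor and cell type marker genes were chosen with earlier results of these data known. All collagen genes are reported, with CPM where a group mean reached 1 and counts otherwise or where a library was near 0. Of the biosynthesis and receptor lists, the 3 highest in CPM, up to 5 called genes with the largest fold change and every gene called lower are named, and of the marker lists up to 3 of the highest. Acan, Sox9, Cdh1, Epcam, the markers at 0, the mural and fibroblast markers, and P3h1, P3h2, P3h3 and Crtap were added after their values were seen.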

Additional observations from a re-analysis of the deposited data

How the results depend on the processing

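No paired analysis was possible because the animal of each library is not given in the sources used here. Whether mandible and femur libraries came from the same mice is therefore not known. Of the 21 called collagen genes, 17 were called under all 17 alternatives, and Col2a1, Col9a2, Col8a1 and Col8a2 were lost in some. The number of called collagen genes, all higher in the mandible, was 25 with DESeq2, 27 with edgeR's exact test, 18 with limma-voom, 17 at an adjusted p under 0.01, 29 of 44 with every gene tested, and 17 to 29 with a library left out. The biosynthesis list gave 11 to 17 calls and the receptor list 4 to 6 with a library left out. Over all genes, 938 were called, 1548 with DESeq2, 1468 with the exact test, 1590 with every gene tested, 445 at an adjusted p under 0.01 and 434 to 1565 with a library left out (434 without S19, 509 without S13, 551 without S23, 552 without S18 and 1565 without S15). With every gene tested, the median of all genes shifted to -1.09. Of 645 alternatives for 38 single genes, 591 kept direction and call, 22 lost and 29 gained a call, and 3 turned direction, all for Col7a1, which was 0.21 with limma-voom, and -0.71 to 1.47 with a library left out (1.47 without S15, 0.21 without S16), in place of -0.22. The cause was not tested. Outside S15, collagen genes with a few counts in the femur were near the limit that a count of 0 allows, and their fold changes depend on S15.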
